A study of Homo sapiens with 30 samples.

Results

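The response that 4 herbal formulas shared at their highest dose was measured in HT29, a line established from a human colorectal adenocarcinoma, by setting every High dose library against every Low dose library. All 18 libraries whose titles give a High dose or a Low dose were taken, 9 of each, out of 30 libraries in the series, and the formula was a block in the test. The High dose was 500 µg/mL and the Low dose 20 µg/mL of an ethanol extract, both for 24 h. At each of these doses there were 3 libraries of Soshiho-tang, 3 of Yijin-tang, 2 of Okbyeongpung-san and 1 of Soyo-san. All 18 libraries were therefore from extract-treated cells and none from vehicle cells, so the comparison asks what a higher dose adds to a lower one. A further 9 libraries at a Medium dose of 100 µg/mL and 3 vehicle libraries entered no test. The DMSO content of the vehicle is 0.1% in the sample labels but 2% in the design text, and the labels do not state the solvent content of the extract cultures. By the design text, an extract whose IC20 (the concentration that gives a 20% inhibition) lay under 500 µg/mL was used at that IC20 and at dilutions of it, whereas the labels give the same 3 doses for every formula, so the true doses are uncertain. Whether replicates came from different cultures is not in the labels. The p-values therefore rest on the spread between these libraries, which may be technical. Batch D in the titles holds the Soyo-san libraries and the Okbyeongpung-san libraries of replicate 3 and batch E the other libraries, and the titles do not say what a batch is. HT29 is 1 cell line, and bulk RNA cannot tell fewer cells of a kind from less RNA per cell.

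The formulas are mixtures of plant extracts. Soshiho-tang is built on Bupleurum and Scutellaria roots, Yijin-tang on Pinellia and citrus peel, Okbyeongpung-san on Astragalus root and Soyo-san on Bupleurum, Angelica and peony roots. Plant flavonoids and other small molecules commonly meet a few sensing systems in gut epithelium. The aryl hydrocarbon receptor (AHR) is a ligand-activated transcription factor that drives CYP1 enzymes. NRF2 is released from its inhibitor KEAP1 by electrophiles and drives glutathione, thioredoxin and NADPH genes. SREBP2 switches on cholesterol synthesis when membrane sterol is low, whereas the liver X receptors (LXR) drive sterol export when oxysterols are high. Interferon response genes are driven by a complex that holds STAT2 and IRF9, at a low tonic level also without infection.

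The libraries held 18.5 to 28.9 M counts at the High dose and 19.8 to 27.0 M at the Low dose. The share of counts from mitochondrially encoded genes was 9.06% to 12.4% at the High dose and 10.3% to 12.9% at the Low dose, and it was lower at the High dose in 8 of 9 pairs of the same formula and replicate number. Its part in the results was not tested. A panel of 12 colon epithelium genes, among them EPCAM, KRT8, KRT18 and CDX2, was detected throughout and summed to 11535 to 12948 CPM (counts scaled to library size) at the High dose and 11621 to 12367 CPM at the Low dose. Of these 12 genes 5 were higher and 3 lower in the test given below, beside 17.9% and 16.5% of all tested genes. In that panel KRT20, a keratin of mature colon cells, was higher at the High dose by a log2 fold change of 0.32, and VIL1, the microvillus protein villin, was lower, at -0.34. The groups overlapped for KRT20. They did not for CEACAM6 (40.7 to 61.4 CPM at the High dose, 31.6 to 39.1 at the Low dose) or LGALS4 (351 to 405 and 406 to 450 CPM). Genes of other cell types summed to few CPM in both groups. The 6 fibroblast genes summed to at most 2.5 CPM at the High dose and 2.56 CPM at the Low dose, and the 6 immune genes to at most 9.44 CPM at the High dose and 8.89 CPM at the Low dose, with the T cell gene CD3E and the B cell gene MS4A1 at 0 in every library. Most of the immune sum was CD68, at 4.18 to 6.77 CPM at the High dose and 4.48 to 6.45 CPM at the Low dose. Of the 2 immune genes tested 1 was higher, a call lost without Soshiho-tang. The first principal component of the 18 libraries held 48.3% of the variance. On it every High dose library lay below every Low dose library: the 3 Soshiho-tang High dose libraries lay between -18.1 and -17.5, the other 6 High dose libraries between -3.54 and -0.842, and the 9 Low dose libraries between 6.7 and 8.13.

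At the High dose 2667 genes were higher and 2454 were lower than at the Low dose, out of 14885 genes that passed the filter on low counts. This is 17.9% of tested genes higher and 16.5% lower, 34.4% in all, at a Benjamini-Hochberg adjusted p below 0.05 in edgeR's quasi-likelihood test. Most of the changes were small. The median absolute log2 fold change of the called genes was 0.146, and 13 genes (0.0873%) rose and 25 (0.168%) fell by 2-fold or more. Of the called genes 4328, or 84.5%, had the same sign in all 4 formulas in a fit with a dose term per formula. The same libraries gave the calls and the signs, so part of this share comes with the selection. It is a description, with no share over all tested genes beside it. All 9 High dose libraries lay above all 9 Low dose libraries for 383 genes (2.57%) and below them for 352 (2.36%). Soshiho-tang weighed heavily on these counts: without it 1384 genes were higher (9.3%) and 1240 lower (8.33%), and 2522 of those 2624 were also called, in the same direction, with it. All libraries of the fit without Soshiho-tang are also in the whole fit, so this overlap is largely built in. Within batch E 4503 genes were called, and within the 4 libraries of batch D 1258 (625 higher and 633 lower). Batch D has 1 library per formula and dose, so a call lost there says little about the gene.

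**Figure D1:**
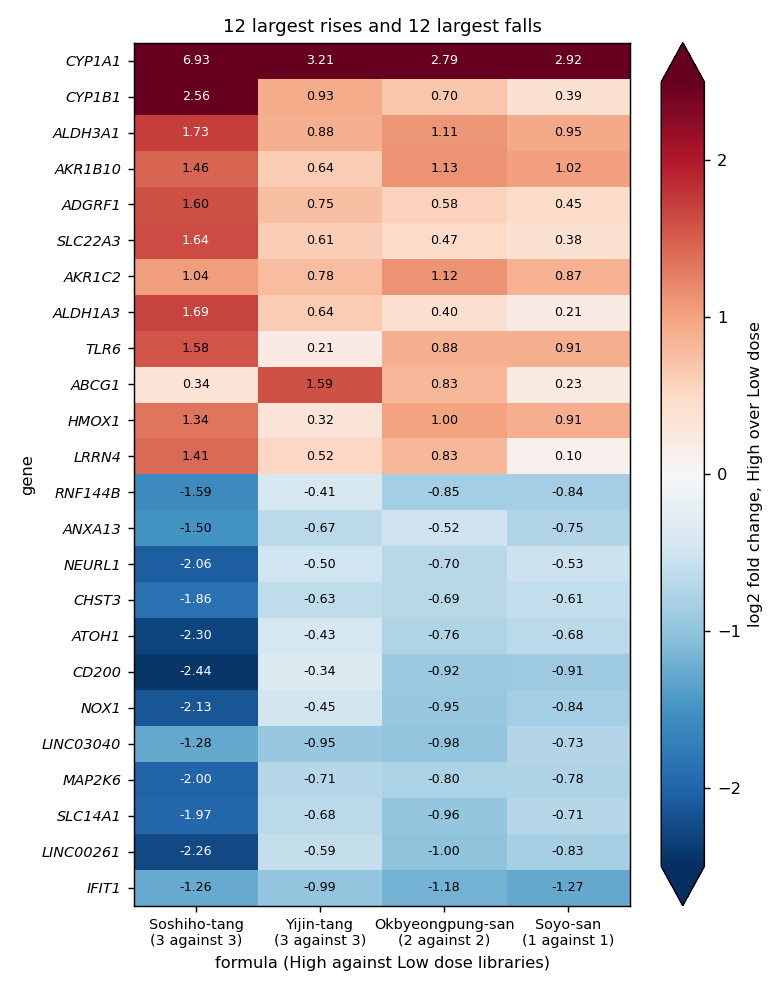
Log2 fold changes, High over Low dose, of the 12 genes that rose most and the 12 that fell most in all formulas together (rows) within each of the 4 formulas (columns), with the value printed in each cell and colour saturated at 2.5. The genes were chosen to have the same sign in every column; Soshiho-tang has the largest value for most genes, ABCG1 is largest in Yijin-tang (1.59) and IFIT1 is nearly even across the row (-0.99 to -1.27).

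The AHR battery gave the largest rises. CYP1A1, the classic AHR target and a monooxygenase of aromatic hydrocarbons, had 2.8 CPM in the lowest, 7.26 in the median and 133 in the highest High dose library, against 0.365, 0.711 and 1.43 CPM in the Low dose libraries. The groups did not overlap, and the 3 Soshiho-tang High dose libraries stood far above the other 6. The log2 fold change was 5.75 ± 0.37 (SE; adjusted p = 1.4e-07) over all formulas and 3.07 ± 0.15 (adjusted p = 2.7e-14) without Soshiho-tang. Within formulas it was 6.93 in Soshiho-tang, 3.21 in Yijin-tang, 2.79 in Okbyeongpung-san and 2.92 in Soyo-san. These differed in the test between formulas (adjusted p = 2.2e-05), so 5.75 is no size that the formulas share. Its SE does not measure the spread between formulas. All 11 tested genes of a list of 12 AHR targets were higher, with a median log2 fold change of 0.69 beside -0.0024 over all tested genes. Without Soshiho-tang 10 of the 11 were higher and the median was 0.46, beside a background of 9.3% higher.

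Other members of the battery rose less. CYP1B1, a sister monooxygenase, had 65.7, 105 and 375 CPM (lowest, median and highest) at the High dose against 50.2, 54.3 and 67.8 CPM at the Low dose. These groups overlapped, and the log2 fold change was 1.42 over all formulas and 0.78 without Soshiho-tang. TIPARP, a feedback inhibitor of AHR, rose by 0.69, with 1.23 in Soshiho-tang and 0.33 to 0.45 in the other formulas, and its groups did not overlap. UGT1A6, which conjugates phenols to glucuronic acid, had 57.7, 69.8 and 76 CPM at the High dose against 41.5, 48.2 and 51 CPM at the Low dose, a log2 fold change of 0.52 ± 0.041 with no difference between formulas past the test (adjusted p = 0.44). It shares its last exons with the other UGT1A genes, so its count is less certain. The efflux pump ABCG2 rose by 0.28 and was highest in Okbyeongpung-san (0.47). The aldehyde dehydrogenases ALDH3A1 (1.24) and ALDH1A3 (0.94) also rose; the groups overlapped for ALDH1A3 but not for ALDH3A1.

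**Figure D2:**
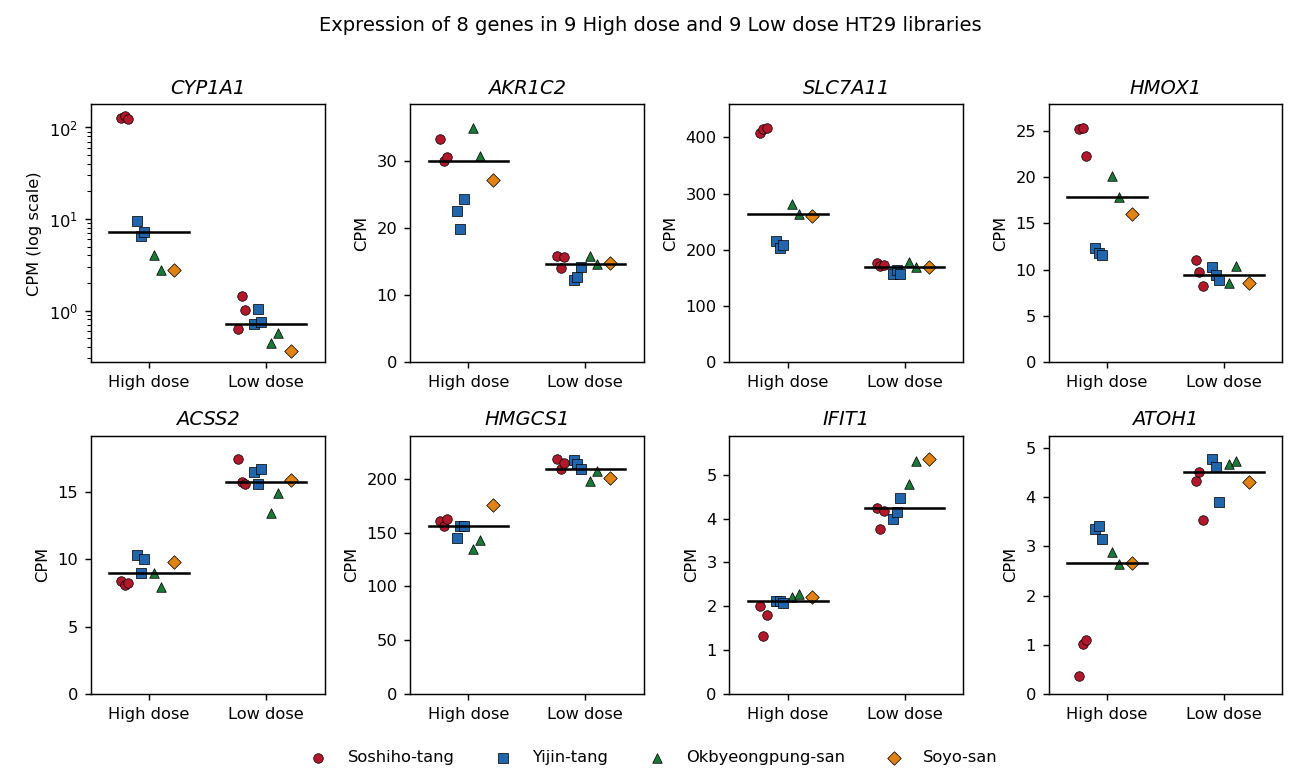
CPM of 8 genes in each of the 9 High dose (left) and 9 Low dose (right) libraries, with colour and marker for the formula and a bar at the median of 9; CYP1A1 is on a log axis. The High dose libraries lie above the Low dose libraries for CYP1A1, AKR1C2, SLC7A11 and HMOX1 and below them for ACSS2, HMGCS1, IFIT1 and ATOH1, without overlap in any of the 8.

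The promoter of CYP1A1 is shown with the core of the AHR binding site, GCGTG on either strand, in capitals. Promoter windows run from 250 bases before to 50 after the start site and are RefSeq's on GRCh38.p14. For CYP1A1, on the minus strand, the window is chr15:74725479-74725778, and it holds 1 match, starting 57 bases before the start site. The 5 letters are common: 36.5% of all 35116 promoter windows hold them, and 57.7% of 10579 tested genes do in any of their windows.
CYP1A1: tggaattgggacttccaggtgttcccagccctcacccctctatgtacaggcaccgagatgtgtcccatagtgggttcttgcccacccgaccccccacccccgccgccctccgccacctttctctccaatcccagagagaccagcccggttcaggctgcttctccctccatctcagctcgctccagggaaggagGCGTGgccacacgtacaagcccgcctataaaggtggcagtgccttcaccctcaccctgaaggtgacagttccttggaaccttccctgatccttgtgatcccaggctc

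Genes of the NRF2 response rose. In the list of thioredoxin and quinone defence all 12 tested genes were higher, with a median log2 fold change of 0.48, and all 12 were higher without Soshiho-tang (median 0.37). AKR1C2, an aldo-keto reductase of steroids and lipid aldehydes, had 19.8, 29.9 and 34.9 CPM at the High dose against 12.3, 14.6 and 15.9 CPM at the Low dose. Every High dose library was above every Low dose library, and the log2 fold change of 0.96 ± 0.052 (adjusted p = 2.3e-11) did not differ between formulas past the test (1.04, 0.78, 1.12 and 0.87; adjusted p = 0.21). Its relative AKR1B10, which reduces retinal and other aldehydes, rose by 1.07, with values of 1.46 in Soshiho-tang, 0.64 in Yijin-tang, 1.13 in Okbyeongpung-san and 1.02 in Soyo-san that differed between formulas (adjusted p = 1.4e-12). TXNRD1, which recycles thioredoxin, had 428, 490 and 638 CPM at the High dose against 329, 345 and 362 CPM at the Low dose, a rise of 0.57. NQO1, a quinone reductase driven by both NRF2 and AHR, rose by 0.44, the NRF2 target OSGIN1 by 0.51 and the peroxiredoxin PRDX1 by 0.19. Since AKR1C2 and AKR1B10 have close paralogs and the counts are estimates that divide shared reads, their values are less certain than those of single-copy genes.

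The glutathione and cystine list rose nearly as a whole. Of its 11 tested genes 10 were higher, with a median of 0.35, and the same number without Soshiho-tang (median 0.24). The gene that did not pass was GSTA4 (-0.03), named here after its value was seen. SLC7A11, the cystine importer that feeds glutathione synthesis, had 203, 263 and 417 CPM at the High dose against 157, 170 and 178 CPM at the Low dose. It rose by 0.76 without overlap, and by 1.25 in Soshiho-tang, 0.39 in Yijin-tang, 0.65 in Okbyeongpung-san and 0.61 in Soyo-san. GSR, which regenerates reduced glutathione, rose by 0.35 ± 0.028 (adjusted p = 8.6e-10), the peroxidase GPX2 by 0.21, and the conjugate pump ABCC2 by 1.14, at 1.54, 2 and 3 CPM at the High dose against 0.572, 0.936 and 1.26 CPM at the Low dose. Of 6 NADPH-supplying genes 5 were higher, among them malic enzyme ME1 (0.32). The sixth, cytosolic isocitrate dehydrogenase IDH1, fell: 116, 138 and 144 CPM at the High dose against 160, 165 and 169 CPM at the Low dose, a log2 fold change of -0.32 (adjusted p = 2.7e-09). Its direction was opposite to that of the rest of the list in each of the 4 formulas. The vehicle libraries had 137, 139 and 146 CPM of IDH1, near the High dose median and below the Low dose range.

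The promoter of TXNRD1 carries 2 matches to the antioxidant response element bound by NRF2, written TGACNNNGC and searched on both strands. The window of 300 bases shown is chr12:104215529-104215828 on the plus strand, 1 of 2 that RefSeq lists for the gene and the one with more matches. The capitals mark the matches, which start 99 and 8 bases before the start site. The motif is held by 13.3% of all promoter windows, by 19.5% of 10579 tested genes in any of their windows, by 3 of 10 genes of the thioredoxin list and by 5 of 7 of the glutathione list that have a window.
TXNRD1: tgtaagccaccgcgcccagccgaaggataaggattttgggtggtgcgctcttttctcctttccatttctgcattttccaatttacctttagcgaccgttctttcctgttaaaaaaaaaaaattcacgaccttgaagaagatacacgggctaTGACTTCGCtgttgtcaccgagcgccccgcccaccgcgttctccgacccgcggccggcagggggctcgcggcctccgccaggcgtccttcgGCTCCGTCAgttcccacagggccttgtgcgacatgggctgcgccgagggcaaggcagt

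Heme and iron genes mostly rose. Heme oxygenase HMOX1, which degrades heme, had 11.6, 17.8 and 25.3 CPM at the High dose against 8.22, 9.47 and 11 CPM at the Low dose. The groups did not overlap, though the 3 Yijin-tang High dose libraries lay just above the Low dose range. The log2 fold change was 0.90 ± 0.13, and within formulas 1.34 in Soshiho-tang, 0.32 in Yijin-tang, 1.00 in Okbyeongpung-san and 0.91 in Soyo-san (adjusted p = 1.2e-05 for the difference). Of 11 tested heme and iron genes 8 were higher, including FECH (0.34), which inserts iron into heme, and ALAS1 (0.21; 0.14 with adjusted p = 0.11 within batch D), the first enzyme of heme synthesis. The 2 that fell were the iron exporter SLC40A1 (-0.41) and the biliverdin reductase BLVRA (-0.54; -0.81 with adjusted p = 0.11 within batch D), named here as the exceptions after their values were seen.

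Protein quality control genes showed small rises over nearly whole lists. All 26 tested proteasome subunits were higher, with a median log2 fold change of 0.16, and 22 of them without Soshiho-tang (median 0.12) and 16 within batch D. PSMB2 had 262, 281 and 306 CPM at the High dose against 239, 244 and 253 CPM at the Low dose, and PSMC4 had 147, 160 and 175 CPM at the High dose against 136, 140 and 146 CPM at the Low dose. Neither gene's groups overlapped, and both rose by 0.19. Of 19 chaperones of the endoplasmic reticulum 16 were higher and none lower (median 0.16). HSP90B1, the endoplasmic HSP90, rose by 0.23. Of 17 heat shock proteins 13 were higher (median 0.12), among them the mitochondrial co-chaperonin HSPE1 (0.19) and the HSP70 to HSP90 adaptor STIP1 (0.14), and 1 was lower, the small heat shock protein HSPB1 (-0.29), named after its value was seen. The vehicle libraries had 373 CPM of STIP1 on average, above the highest High dose library (368 CPM).

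Cholesterol synthesis genes fell. Of 24 tested genes of the pathway and its SREBP2 control 21 were lower and none higher, with a median log2 fold change of -0.22, and without Soshiho-tang 23 were lower (median -0.26, beside -0.0012 over all genes). HMGCS1, which makes HMG-CoA, had 135, 156 and 176 CPM at the High dose against 198, 209 and 218 CPM at the Low dose. LSS, which forms lanosterol, had 67.8, 78.4 and 81.5 CPM at the High dose against 98.7, 101 and 108 CPM at the Low dose. Neither gene's groups overlapped. HMGCS1 fell by 0.44 ± 0.029 and LSS by 0.42 ± 0.028 (adjusted p = 1.3e-10 and 2.3e-11). INSIG1, an SREBP2 target that holds SREBP in the endoplasmic reticulum, fell by 0.50 and the sterol reductase TM7SF2 by 0.48. Within the 4 batch D libraries HMGCS1 (-0.35, adjusted p = 0.45) and INSIG1 (-0.52, adjusted p = 0.083) did not pass the test, and 17 of the 24 genes were lower there.

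Soshiho-tang did not have the largest median in this list. The list's median was -0.17 in Soshiho-tang, -0.24 in Yijin-tang, -0.30 in Okbyeongpung-san and -0.16 in Soyo-san, and for 10 of the 24 genes the dose effect differed between formulas (6.95% of all tested genes did). The phosphomevalonate kinase PMVK (0.04) and the sterol carrier STARD4 (-0.07) were among the 3 genes that did not pass over all formulas, and were named as exceptions after their values were seen. Without Soshiho-tang STARD4 was called lower (-0.17, adjusted p = 0.00036). It gave 0.14 in Soshiho-tang, -0.16 in Yijin-tang and -0.26 in Okbyeongpung-san, a difference between formulas at adjusted p = 0.00044.

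Genes of acetate and fatty acid use followed in part. ACSS2, which makes acetyl-CoA from acetate, had the smallest adjusted p of the fatty acid list: 7.93, 8.97 and 10.3 CPM at the High dose against 13.4, 15.7 and 17.4 CPM at the Low dose, a log2 fold change of -0.81 ± 0.048 (adjusted p = 4.8e-12). Its values were -0.98 in Soshiho-tang, -0.72 in Yijin-tang, -0.74 in Okbyeongpung-san and -0.70 in Soyo-san, with no difference between formulas past the test (adjusted p = 0.36). Of 9 tested fatty acid synthesis genes 5 were lower, including the desaturase FADS1 (-0.34; -0.43 with adjusted p = 0.088 within batch D), and 1 higher. LXR target genes went the other way: 5 of 7 were higher and none lower, with a median of 0.22. LPCAT3, which remodels phospholipids, rose by 0.22 and NR1H3, which encodes LXR alpha, by 0.21, both without overlap. No difference between formulas passed the test for LPCAT3 (edgeR adjusted p = 0.75) or NR1H3 (adjusted p = 0.94). ABCG1, a sterol exporter, had 2.84, 4.45 and 8.23 CPM at the High dose against 2.33, 2.56 and 2.99 CPM at the Low dose and rose by 1.59 in Yijin-tang, 0.83 in Okbyeongpung-san, 0.34 in Soshiho-tang and 0.23 in Soyo-san (adjusted p = 7.3e-05 for the difference). ABCA1, another sterol exporter, gave -0.84 in Soshiho-tang, 0.39 in Yijin-tang, -0.17 in Okbyeongpung-san and -0.71 in Soyo-san (adjusted p = 0.00012 for the difference). It did not pass over all formulas (-0.22, adjusted p = 0.32), nor did SMPDL3A (-0.09). Both were named after their values were seen. ABCA1 was called lower with equal formula weights (-0.33, adjusted p = 0.0023), with no filter on low counts (-0.21, adjusted p = 0.0096), without Yijin-tang (-0.57, adjusted p = 0.0031) and within batch D (-0.46, adjusted p = 0.042), so that 1 list gene was lower there. Within batch D 2 LXR genes were higher, and ABCG1 did not pass (0.66, adjusted p = 0.054).

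Interferon response genes fell. Of 22 tested members of a list of 25, 19 were lower and none higher, with a median log2 fold change of -0.38. Within batch E 18 were lower and 1, SAMD9, higher, and within batch D 12 were lower. Without Soshiho-tang 17 were lower (median -0.28, beside a background of 8.33% lower). IFIT1, which binds foreign RNA caps, had 1.33, 2.11 and 2.27 CPM at the High dose against 3.77, 4.24 and 5.35 CPM at the Low dose. The groups did not overlap, and the log2 fold change was -1.15 ± 0.082 (adjusted p = 8e-11), with -1.26 in Soshiho-tang, -0.99 in Yijin-tang, -1.18 in Okbyeongpung-san and -1.27 in Soyo-san. No difference between formulas passed the test (adjusted p = 0.83). Among called genes that averaged 2 CPM or more and had 1 sign in all formulas, IFIT1 had the largest fall.

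Other members of the interferon list fell with it. OAS2, an RNA sensor, had 0.432, 1.05 and 1.67 CPM at the High dose against 1.49, 2.75 and 3.8 CPM at the Low dose, which overlap slightly, and fell by 1.34. IRF9, the DNA-binding part of the interferon-activated complex, fell by 0.65, IFITM3, which blocks viral entry, by 0.66, and IFI44 by 0.63, each in 9 of 9 pairs and without overlap of the groups, though IFI44 did not pass within batch D (-0.43, adjusted p = 0.18). Of the 22 genes 2 differed between formulas past the test, beside 6.95% of all tested genes, and nothing is read from this count. The 3 genes that did not pass over all formulas were IRF7 (0.01), BST2 (-0.01) and SAMD9 (0.11, adjusted p = 0.071), named after their values were seen. SAMD9 was called higher in 10 alternatives, among them DESeq2 (0.12, adjusted p = 0.033), no filter on low counts (0.12, adjusted p = 0.00032) and equal formula weights (0.13, adjusted p = 0.022). In the vehicle libraries IFIT1 averaged 3.22 CPM, below the Low dose range, and IFI44 2.74 CPM, within the High dose range of 1.97 to 2.93.

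Promoters of this list commonly hold the interferon-stimulated response element, searched here as a pair of TTTC half-sites set 2 bases apart, on both strands. In any of its windows 14 of the 17 list genes with a window held it, against 3.79% of tested genes and 3.57% of all windows. The list was drawn up as known interferon genes, so this share describes the list and is no separate result. The capitals mark the matches in the windows of IFIT1 (chr10:89392373-89392672, plus strand, 116 and 103 bases before the start site) and IFI44 (chr1:78649539-78649838, plus strand, 18 bases before the start site, 1 of 2 windows listed).
IFIT1: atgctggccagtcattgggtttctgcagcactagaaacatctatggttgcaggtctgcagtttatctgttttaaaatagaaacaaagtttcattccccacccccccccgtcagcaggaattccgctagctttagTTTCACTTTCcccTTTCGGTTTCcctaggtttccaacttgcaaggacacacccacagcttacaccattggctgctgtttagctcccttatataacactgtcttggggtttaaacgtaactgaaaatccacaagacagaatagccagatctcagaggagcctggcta
IFI44: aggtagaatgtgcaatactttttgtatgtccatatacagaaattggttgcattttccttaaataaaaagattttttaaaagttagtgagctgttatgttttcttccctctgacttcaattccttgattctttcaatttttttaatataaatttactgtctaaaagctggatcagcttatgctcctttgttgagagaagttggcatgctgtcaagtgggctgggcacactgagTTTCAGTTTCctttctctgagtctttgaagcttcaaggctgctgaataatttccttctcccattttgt

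Secretory genes of the colon fell. Of 13 tested goblet and secretory genes 10 were lower and none higher, with a median of -0.37, and without Soshiho-tang 6 were lower (median -0.26). ATOH1, the transcription factor that sets secretory fate, had 0.366, 2.67 and 3.42 CPM at the High dose against 3.54, 4.51 and 4.77 CPM at the Low dose. The groups did not overlap, and the 3 lowest values were the Soshiho-tang High dose libraries. ATOH1 fell by 0.98 ± 0.22 over all formulas and by 0.57 (adjusted p = 3.4e-05) without Soshiho-tang, with -2.30 in Soshiho-tang, -0.43 in Yijin-tang, -0.76 in Okbyeongpung-san and -0.68 in Soyo-san. The membrane mucin MUC13 fell by 0.50, the secretory folding enzyme AGR2 by 0.37 and the goblet mucin MUC2 by 0.62. The groups overlapped for MUC2 but not for MUC13 or AGR2.

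Genes of WNT and Notch signalling showed smaller falls. Of 15 tested WNT and stem cell genes 10 were lower, with a median of -0.24, but without Soshiho-tang 6 were lower and 1 higher (median -0.13), and within batch D 3 were lower. SOX4 fell by 0.26, PROX1 by 0.42 and ASCL2, a stem cell factor, by 0.57 (-0.48 with adjusted p = 0.072 within batch D). AXIN2, the usual readout of WNT activity, had 71, 77.6 and 82.6 CPM at the High dose against 70.3, 75.8 and 82.1 CPM at the Low dose, and its log2 fold change of 0.03 did not pass the test (adjusted p = 0.43). Of 11 Notch pathway genes 6 were lower, including HES1 (-0.23), the main Notch target, and NOTCH1 itself (-0.16; -0.12 with adjusted p = 0.079 within batch D), and 1 was higher. Without Soshiho-tang 3 were lower.

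The remaining large falls included genes of transport, signalling and 2 long non-coding RNAs. LINC00261 had 2.7, 7.79 and 10.2 CPM at the High dose against 12.5, 14.6 and 15.9 CPM at the Low dose and fell by 1.13, by 2.26 in Soshiho-tang alone and by 0.76 without it. SLC14A1, a urea transporter, fell by 1.09, MAP2K6, a kinase upstream of p38, by 1.08, and NOX1, the superoxide-producing oxidase of the colon, by 1.04. NOX1 had 3.8, 9.93 and 13.9 CPM at the High dose against 15.9, 17.1 and 19.9 CPM at the Low dose. LINC03040, not called within batch D (-0.61, adjusted p = 0.081), fell by 1.04, by between 0.73 and 1.28 in each formula, with adjusted p = 0.68 for a difference between formulas. CD200 (-1.04), CHST3 (-0.97), NEURL1 (-0.94), ANXA13 (-0.89) and RNF144B (-0.89) completed, with IFIT1 and ATOH1, the 12 largest falls named by the rule, and in 11 of the 12, all but CD200, the groups did not overlap.

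Further large rises lay outside the AHR and NRF2 lists. ADGRF1, an adhesion G protein-coupled receptor, had 50.1, 60.7 and 128 CPM at the High dose against 35.2, 37.8 and 42.1 CPM at the Low dose and rose by 0.99. SLC22A3, a transporter of organic cations, rose by 0.97, TLR6, a receptor of bacterial lipopeptides, by 0.91 and LRRN4 by 0.88. In all 4 genes Soshiho-tang had the largest change, between 1.41 and 1.64, and without it the values were 0.65, 0.53, 0.56 and 0.55. Within batch D TLR6 (0.64, adjusted p = 0.1) and LRRN4 (0.48, adjusted p = 0.31) did not pass the test.

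Proliferation genes showed small rises. The dose effect differed between formulas for 2 of 25 DNA replication and 1 of 22 mitosis genes. This is near the 6.95% of all tested genes, and nothing is read from it. Of 25 tested DNA replication genes 20 were higher and none lower, with a median of 0.10, 17 without Soshiho-tang (median 0.10) and 13 without Yijin-tang. PCNA, the replication clamp, had 208, 220 and 227 CPM at the High dose against 189, 197 and 205 CPM at the Low dose and rose by 0.16, and the clamp loader gene RFC3 rose by 0.21, both without overlap. Of 22 mitosis genes 15 were higher and none lower (median 0.10). Within batch D 3 replication and 3 mitosis genes were higher, and PCNA, RFC3 and MKI67 (0.09 to 0.10) did not pass the test. CDC20, which activates the anaphase-promoting complex, had 155, 162 and 173 CPM at the High dose against 136, 143 and 148 CPM at the Low dose and rose by 0.18, and the mitotic kinase PLK1 rose by 0.17. MKI67, the Ki-67 antigen, rose by 0.09 with overlapping groups. The vehicle libraries averaged 165 CPM of CDC20, within the High dose range, and 188 CPM of PLK1, above it.

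The p53, FOXO and clock lists had members called in both directions, beside 17.9% higher and 16.5% lower over all tested genes. Higher calls made up 18.8% of the p53, 9.09% of the FOXO and 23.1% of the clock list. Nothing is read from shares near those of all genes. Of 16 p53 targets 7 were lower and 3 higher, with a median of -0.02. BTG2, an antiproliferative p53 target, had 13.3, 27.6 and 31.5 CPM at the High dose against 37.3, 39.6 and 41.1 CPM at the Low dose and fell by 0.75 without overlap, by 0.45 without Soshiho-tang. TP53INP1 fell by 0.68 (-0.24 with adjusted p = 0.5 within batch D) and SESN1 by 0.44. In the vehicle libraries TP53INP1 had 2.94 to 3.41 CPM, within the High dose range of 1.7 to 4.07 CPM. Its Low dose range was 3.99 to 5.42 CPM. CDKN1A, which encodes p21, rose by 0.18 over all formulas (adjusted p = 0.014), by 0.43 in Soshiho-tang, and without that formula gave 0.04 (adjusted p = 0.72). With equal formula weights it gave 0.12 (adjusted p = 0.062), and within batch D -0.03 (adjusted p = 0.93). Of 11 FOXO-responsive genes 7 were lower and 1 higher (median -0.22), and the atypical cyclin CCNG2 fell by 0.40 without overlap. Of 13 clock genes 6 were lower, PER3 among them (-0.26; -0.11 with adjusted p = 0.54 within batch D), and 3 higher, among them the repressor NR1D1 (0.23).

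Stress and immediate early genes rose in part. Of 20 tested genes of the ATF4 response 7 were higher and 1, DDIT4 (-0.19, named after its value was seen), was lower. These are 35% and 5%, beside 17.9% higher and 16.5% lower over all tested genes. The count of higher genes was 4 with a replicate block and 11 with no filter on low counts. The call of DDIT4 was lost in several alternatives, with the batch E libraries among them (-0.16, adjusted p = 0.16). Without Soshiho-tang, where 9.3% of all tested genes were higher and 8.33% lower, 2 of the 20 were higher and 1 lower. For 10 of the 20 the dose effect differed between formulas, beside 6.95% of all tested genes. The list's median was 0.37 in Soshiho-tang, -0.03 in Yijin-tang, 0.04 in Okbyeongpung-san and 0.02 in Soyo-san. PSAT1, of serine synthesis, gave 0.46 in Soshiho-tang and 0.00 to 0.18 in the others, and without Soshiho-tang its call was lost (0.06, adjusted p = 0.14). MTHFD2, of the mitochondrial folate cycle, rose by 0.15 and also without Soshiho-tang (0.09, adjusted p = 0.0017), but did not pass within batch D (0.09, adjusted p = 0.11). DDIT3, which encodes CHOP, had 4.37, 4.67 and 6.58 CPM at the High dose against 4.33, 4.91 and 5.27 CPM at the Low dose and did not pass (0.10, adjusted p = 0.33). Of 16 AP-1 and immediate early genes 8 were higher over all formulas, beside 17.9% of all tested genes, and 3 without Soshiho-tang, beside 9.3%. This list's median log2 difference was 0.22 for vehicle minus Low dose and 0.04 for High dose minus vehicle. Only 3 of the 16 (18.8%) were ordered Low, Medium, High in the direction of their change, beside 53.2% of all tested genes. The rise is therefore one over the Low dose, and the vehicle was not tested. FOSL1, the FRA-1 subunit, rose by 0.49, and by 0.33 without Soshiho-tang, and FOSL2 rose by 0.14 (0.05 within batch D, adjusted p = 0.59). The chemokine CXCL8 rose by 0.27, and gave 0.09 without Soshiho-tang (adjusted p = 0.44) and 0.00 within batch D (adjusted p = 0.99).

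**Figure D3:**
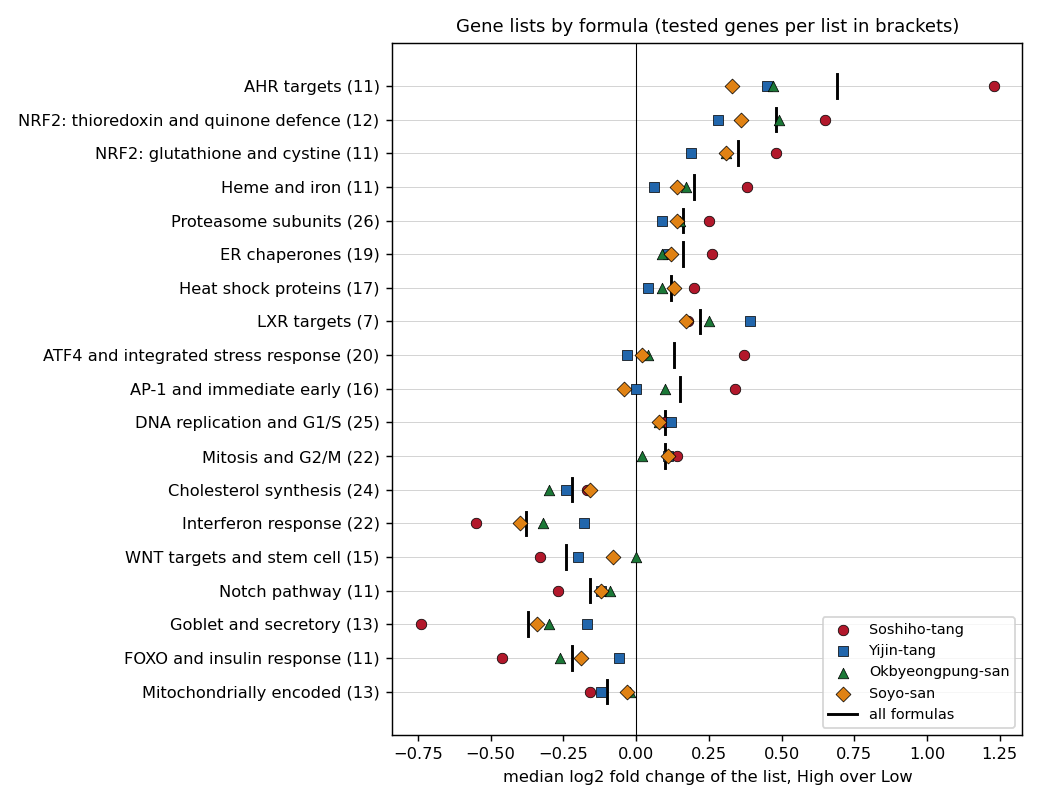
Median log2 fold change, High over Low dose, of 19 gene lists (rows) in each formula (coloured markers) and over all formulas (black bar), with the number of tested genes in brackets. AHR, NRF2 and proteasome genes lie right of 0 in every formula, cholesterol, interferon and goblet genes left of it, and the ATF4 list lies at 0.37 in Soshiho-tang but between -0.03 and 0.04 in the other 3.

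The remaining lists had members called in both directions or few called members. None of the 13 mitochondrially encoded genes passed edgeR's test (median -0.10) and 2 were lower at an unadjusted p below 0.05, but 12 were called lower without the filter on low counts, 5 with a replicate block and 1 by DESeq2. The counts that follow stand beside 17.9% higher and 16.5% lower over all tested genes, and nothing is read from those near these shares. Metallothionein and zinc genes were higher in 1 of 5, PXR and CAR targets higher in 1 and lower in 1 of 5, and NF-kB chemokine and feedback genes higher in 3 and lower in 1 of 12. The lower PXR and CAR call was lost with DESeq2, which gave 2 higher, with no filter, with a replicate block, with equal formula weights, without each formula and within each batch. No NF-kB gene was called without Soshiho-tang or within batch D. Of 16 lysosome and autophagy genes 3 were higher and 3 lower. Of 10 YAP targets 2 were higher and 1 lower, of 11 ERK feedback genes 4 and 2, of 17 apoptosis regulators 6 and 2, and of 9 enterocyte genes 3 and 4. Glycolysis genes were higher in 9 and lower in 3 of 19, amino acid transporters higher in 7 and lower in 1 of 11, and fatty acid oxidation genes higher in 6 and lower in none of 11.

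The size of the dose effect differed between formulas for 1034 genes, 6.95% of those tested. Of these 879 were also called for dose over all formulas, 725 had the same sign in all 4 formulas and 309 did not, and in 943 Soshiho-tang had the largest absolute change. Within Soshiho-tang alone 5291 genes were called (35.5%), within Yijin-tang 811 (5.45%) and within Okbyeongpung-san 832 (5.59%). Soyo-san, with 1 library a dose, was given no count. Higher calls made up 18.6% of tested genes in Soshiho-tang, 2.72% in Yijin-tang and 2.91% in Okbyeongpung-san, and lower calls 16.9%, 2.73% and 2.68%. For 159 genes a rise and for 190 a fall was called within each of these 3 formulas. Among the genes called over all formulas the median absolute log2 fold change was 0.225 in Soshiho-tang, 0.099 in Yijin-tang, 0.114 in Okbyeongpung-san and 0.129 in Soyo-san. Across the 14885 genes the changes in Soshiho-tang and the mean changes in the other 3 formulas had a Pearson r of 0.472 and a Spearman rho of 0.588; genes are not independent and no test is attached. The 8 genes with the smallest p for a difference, at 2 CPM or more, included SLC7A11, TIPARP, ADGRF1, AKR1B10 and BTG2, given above. The others were SLC12A2, a chloride importer (-0.87 in Soshiho-tang, -0.20 to -0.30 in the other formulas), CLEC3A, a C-type lectin (-1.11 and -0.14 to -0.39), and AQP3, a water and glycerol channel (1.08 in Soshiho-tang, 0.25 in Yijin-tang, 0.65 in Okbyeongpung-san and 0.19 in Soyo-san). In the vehicle libraries SLC12A2 had 638 to 716 CPM, within the High dose range of 471 to 786 CPM. Its Low dose range was 856 to 947 CPM. Over batch D AQP3 gave 0.39 (adjusted p = 0.52).

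**Figure D4:**
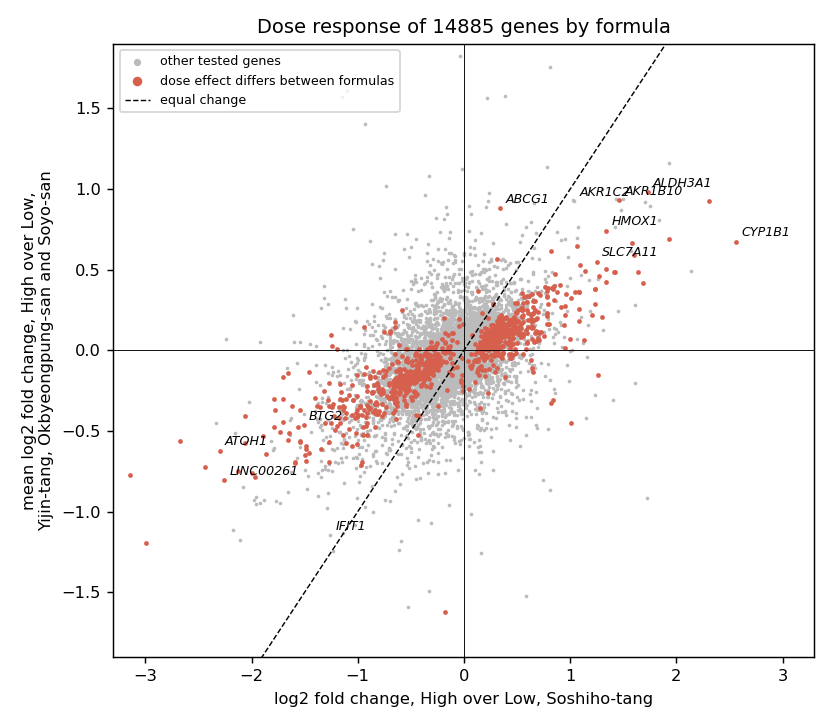
Each of the 14885 tested genes by its log2 fold change, High over Low dose, in Soshiho-tang (x axis) and by the mean of that in the other 3 formulas (y axis), with genes whose dose effect differed between formulas in red and a dashed line of equal change; 29 genes lie outside the axes, CYP1A1 among them. Most red genes lie on the same side of 0 on both axes but nearer to 0 on the y axis, IFIT1 lies close to the dashed line and ABCG1 lies to its left.

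The Medium dose, which entered no fit, mostly lay between the other doses. Of the 2667 genes called higher, 2107 (79%) were ordered Low, Medium, High by the mean of their log2 CPM over 9 libraries each, and of the 2454 called lower 2054 (83.7%) were ordered the same way downwards, beside 53.2% of all tested genes taken in the direction of their own High to Low difference. That difference fixes the direction, so the ordering is a description. The steps were unequal: for called higher genes the median step was 0.03 between Low and Medium and 0.10 between Medium and High, and for called lower genes -0.04 and -0.16. For CYP1A1 the median was 0.711 CPM at the Low dose, 1.34 at the Medium dose and 7.26 at the High dose, and for ACSS2 15.7, 14.7 and 8.97 CPM.

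The vehicle libraries did not always sit beyond the Low dose. Of the genes called higher at the High dose the vehicle mean was at or below the Low dose mean for 1211, between Low and High for 924 and at or above the High dose mean for 532. Of the genes called lower it was at or above the Low dose mean for 1039, between for 1026 and at or below the High dose mean for 389. All AHR and NRF2 list genes had their vehicle mean short of the High dose mean, as did all 26 proteasome subunits, whereas 11 of 17 heat shock and 11 of 22 mitosis genes had it at or beyond the High dose mean. For interferon genes the vehicle lay between the doses in 14 of 22, at or beyond the High dose mean in 4 and at or beyond the Low dose mean in 4. For cholesterol genes these counts were 13, 6 and 5 of 24. HMGCS1 had 159, 168 and 182 CPM in the vehicle libraries, below its Low dose range of 198 to 218 CPM. FOSL1 had 36.1, 41.3 and 43.1 CPM there, above its Low dose range of 27.6 to 34.7 CPM and near its High dose median of 41. CXCL8 had a vehicle median of 7.84 CPM and a High dose median of 7.58. The library names of the vehicle cultures form a series of their own. An effect of the vehicle and one of that series cannot be told apart, and no test was made against them.

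**Figure D5:**
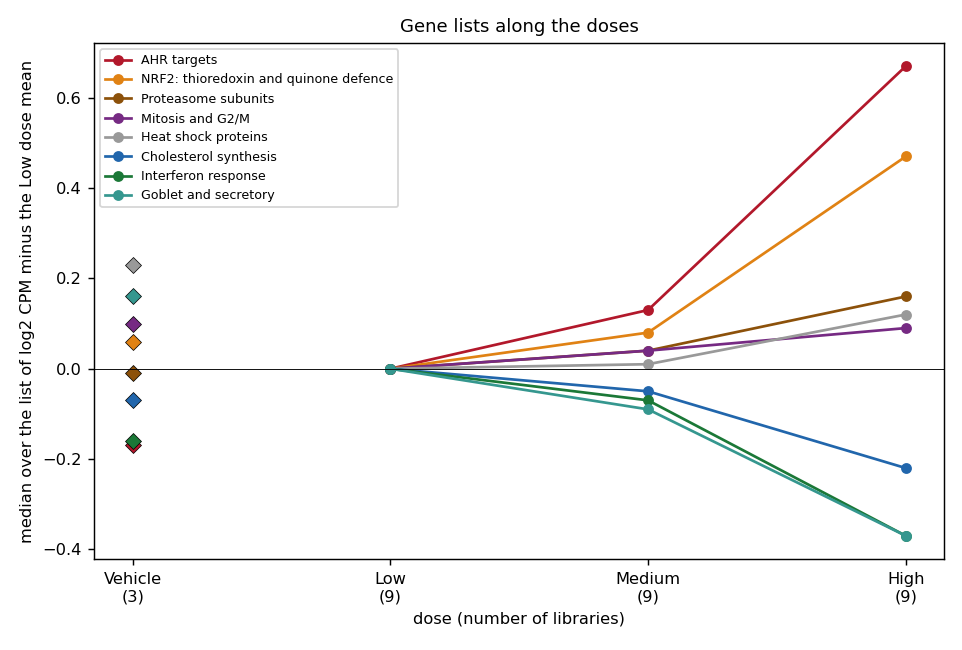
Median over the genes of a list of the mean log2 CPM minus that at the Low dose, at vehicle (diamonds, 3 libraries), Low, Medium and High dose (circles joined by lines, 9 libraries each), for 8 lists. The lists part mainly between the Medium and the High dose, and the vehicle lies above the Low dose for heat shock (0.23) and goblet genes (0.16) and below it for AHR (-0.17) and interferon genes (-0.16).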

How the data were processed

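RNA-seq of HT29 cells gave 1 table of RSEM expected counts per gene, deposited by the authors without normalisation between libraries. Between 9.518% and 11.519% of the values in each column had a decimal part. The tools were FastQC 0.11.9, Trim Galore 0.6.5, RSEM 1.3.3 and STAR 2.7.3a, with GRCh38 as the genome build, per the submitters' processing notes. The annotation release is not given in the sources used here. Expected counts divide reads between genes that share sequence. The table has 60675 gene rows, 30 named columns and 30 empty columns without a name that were not used; 56558 identifiers had a symbol.

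Expected counts were rounded. The 18 High and Low dose libraries were filtered with filterByExpr (by dose), scaled by TMM and fitted in R 4.3.3 with edgeR 4.0.16 (quasi-likelihood F-test, robust, formula plus dose); the biological coefficient of variation was 4.09%. A second fit with a dose term per formula tested the difference between formulas (3.25%). P-values were adjusted over all 14885 genes by the Benjamini-Hochberg method and are two-sided; adjusted p-values in all parts come from these fits. SEs derive from the F statistic. CPM values use TMM factors over all 30 libraries; log2 CPM uses a prior count of 2. Each of 14 pairs of replicate libraries differed by more than sampling noise, with chi-square 2.39 to 7.05 times its degrees of freedom. The scripts' tests were tried on simulated data.

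The members and the 38 gene lists were chosen with earlier results of these data known. Genes were named by rule: the 12 largest rises and 12 largest falls that were called, averaged at least 2 CPM and had 1 sign in all formulas; 6 and 6 without Soshiho-tang; the 8 smallest p for a difference between formulas; up to 4 smallest adjusted p per list; and 15 fixed markers. Exceptions of a list were named after their values were seen, and some genes that the rule names are not reported here. Alternatives were RLE factors, DESeq2 1.42.0, no filter, a replicate block, each formula left out, equal formula weights, each batch alone and each library left out. Promoter windows and motif counts use RefSeq's GRCh38.p14 start sites. The precision of low counts is limited by depth.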

Additional observations from a re-analysis of the deposited data

Results flagged for a closer look

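Within a group of 9 libraries, 1 library stood apart from the other 8 for 9 of 200 groups examined over 100 genes, by the gap to its nearest neighbour divided by the range of the group and read against Dixon's 95% critical value of 0.492, computed for 9 normal values. Chance gives about 1 in 20 groups. These were, with that ratio, ALAS1 in Soshiho-tang Low dose replicate 1 (highest, 0.552), LSS in Soshiho-tang Low dose replicate 1 (highest, 0.493), FADS1 in Yijin-tang Low dose replicate 3 (lowest, 0.552), IFIT1 in Soshiho-tang High dose replicate 2 (lowest, 0.565), MUC13 in Soshiho-tang Low dose replicate 1 (highest, 0.515), HES1 in Okbyeongpung-san Low dose replicate 2 (lowest, 0.678), RNF144B in Okbyeongpung-san Low dose replicate 2 (highest, 0.523), SLC12A2 in Soyo-san Low dose replicate 3 (highest, 0.522) and SAMD9 in Soyo-san Low dose replicate 3 (lowest, 0.777). None of these libraries was left out.

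The dose effect differed between formulas, by a test of the 3 formula-by-dose terms with adjusted p below 0.05, for 55 of the genes named. Among genes higher at the High dose in all 4 formulas the adjusted p were CYP1A1 (2.2e-05), CYP1B1 (9.5e-07), ALDH3A1 (0.00011), ABCG2 (0.0062), TIPARP (4.7e-14), NQO1 (1.2e-06), AKR1B10 (1.4e-12), TXNRD1 (3.5e-10), SLC7A11 (4.7e-14), GSR (0.025), ME1 (0.00033), HMOX1 (1.2e-05), ALAS1 (0.0015), HSP90B1 (0.0019), ABCG1 (7.3e-05), ADGRF1 (6.3e-13), SLC22A3 (4.4e-08), ALDH1A3 (4.1e-06), TLR6 (0.0095), LRRN4 (0.006), AQP3 (1.1e-13), MTHFD2 (0.0081), FOSL1 (8.4e-07), KRT20 (1.3e-06). Among genes lower in all 4 formulas they were IDH1 (0.0033), LSS (0.047), INSIG1 (0.0025), HMGCS1 (0.0043), TM7SF2 (0.025), IRF9 (0.012), ATOH1 (3.6e-05), MUC13 (2.6e-05), LINC00261 (8.7e-09), SLC14A1 (0.00069), MAP2K6 (0.0012), NOX1 (4e-10), CD200 (4e-06), CHST3 (4.9e-08), NEURL1 (0.00074), ANXA13 (1e-05), RNF144B (2.5e-07), SLC12A2 (1.1e-13), CLEC3A (3.5e-13), BTG2 (2.2e-12), TP53INP1 (0.00031), SESN1 (4.2e-07), CCNG2 (0.032), SLC40A1 (3.5e-08), VIL1 (2.9e-06). Among genes whose sign was not the same in all 4 they were PSAT1 (2e-07), CXCL8 (0.025), CDKN1A (0.028), STARD4 (0.00044), DDIT4 (0.00028), ABCA1 (0.00012). Soyo-san had 1 library a dose and was assumed to vary like the others.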

How the results depend on the processing

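Over the alternatives that kept all 18 libraries, the count of 5121 genes lay between 4565 (DESeq2) and 5136 (RLE factors), and RLE factors moved the median log2 fold change of all genes by 0.0008. Without Soshiho-tang 2624 genes were called (1384 higher, 1240 lower), and in the 4 batch D libraries 1258 (625 higher, 633 lower), both with fewer samples. Leaving out 1 library at a time gave 4566 to 5097 genes (2396 to 2662 higher, 2170 to 2449 lower), 790 to 987 with a difference between formulas, 4596 to 5287 within Soshiho-tang, 447 to 880 within Yijin-tang and 405 to 891 within Okbyeongpung-san. The lowest Yijin-tang count was without its Low dose replicate 2, and the lowest Okbyeongpung-san count without its Low dose replicate 2. DESeq2 called 505 genes within Yijin-tang and 544 within Okbyeongpung-san, and the cause was not tested. Of 100 named genes, 22 lost their call in batch D, while all 100 kept direction and call with RLE factors and 99 with DESeq2. With 1 library per formula and dose in batch D, those losses say little about the genes.

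Same-numbered High and Low dose libraries of a formula had deviations that correlated at -0.109 to 0.328, above 0.1 in 6 of 8 pairs. Different-numbered libraries gave -0.195 to 0.147. Deviations within a group are not independent, and the Okbyeongpung-san value of 0.124 repeats by construction. The numbers may therefore pair samples, which the labels do not state. The main fit left such pairing out, and a replicate block was an alternative. With a replicate block 4918 genes were called (2561 higher, 2357 lower), 1473 differed between formulas, and 5698, 1147 and 1144 were called within Soshiho-tang, Yijin-tang and Okbyeongpung-san. PSAT1 (0.19, adjusted p = 0.064) and DDIT4 (-0.19, adjusted p = 0.091) lost their call with the block.

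The sign changed for some values, and the cause was not tested. Most of these genes and medians lay near 0 over all formulas. CDKN1A, ABCA1 and DDIT3 lay further from 0 there, with values given above, and CDKN1A was called. Without Soshiho-tang DDIT3 was at -0.07, BST2 at 0.04, ABCA1 at 0.04 and the ERK feedback median at 0.00. Without Yijin-tang IRF7 was at -0.02 and GSTA4 at 0.05. With equal weights IRF7 was at -0.01 and BST2 at 0.00. In batch D DDIT3 was at -0.17, CDKN1A at -0.03, IRF7 at -0.06, BST2 at 0.05, the PXR and CAR median at -0.01 and the ERK feedback median at -0.02. Leaving out 1 library gave 0.00 to 0.02 for IRF7, -0.03 to 0.01 for BST2 and -0.07 to 0.01 for GSTA4. Depth limits the precision of genes under about 2 CPM, such as OAS2.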
